A study of Mus musculus with 31 samples.

Results

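A set of 10 genes known from fetal liver macrophages was followed across all samples: *C1qa*, *C1qb*, *Csf1r*, *Mrc1*, *Marco*, *Cd5l*, *Cd68*, *Hmox1*, *Timd4* and *Vcam1*. They are 10 of the 18193 genes with a probe set of their own on the Affymetrix mouse expression array used, and they are read by 17 of its 45037 probe sets. The 10 genes were selected on their measured levels in 1 FL HSC sample, WT sample 3 of the *Cdkn1a* experiment, so their levels in that experiment are a description and carry no test.

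The study asked how losing a copy of *Crebbp*, which encodes the transcriptional co-activator CBP, alters expression in fetal liver hematopoietic stem cells (FL HSCs). Each FL HSC sample was a pool of 15 embryos at 14.5 dpc, sorted as Sca-1+, Lin-, AA4.1+, c-Kit++ cells, and its 12 ng of RNA were amplified with the Ovation kit. The *Crebbp* experiment compared 2 *Crebbp*+/- with 2 WT samples, and the *Ep300* experiment 2 *Ep300*+/- with 2 WT samples, all C57BL/6 with WT littermates as controls and 2 arrays per sample. The *Cdkn1a* experiment compared 4 *Cdkn1a*-/- with 3 WT samples, 1 array each, of B6/129Sv background and bought as separate stocks. The MEF experiment compared fibroblasts of 4 *Crebbp*+/- and 4 WT C57BL/6 embryos, 1 embryo per sample and 1 of each genotype from each of 4 litters. No sample received a treatment. The inactivated *Crebbp*, *Ep300* and *Cdkn1a* alleles were constitutive, so they were present in every cell of the embryo. The lineage antibodies named for the sort were against Ter119, CD5 or CD4 and CD8, B220 and GR1, none of them a general macrophage antigen, although c-Kit and Sca-1 had to be present as well.

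In the fetal liver, macrophages sit at the centre of erythroblastic islands, where they hold maturing red cell precursors, engulf the nuclei that these expel and recycle their iron. *C1qa* and *C1qb* encode chains of C1q, the recognition molecule of the classical complement pathway. *Csf1r* is the receptor for the growth factor CSF1, on which macrophages depend for survival. *Mrc1* (mannose receptor), *Marco* (class A scavenger receptor) and *Timd4* (phosphatidylserine receptor) take part in uptake of particles and dying cells. *Cd5l* is a secreted scavenger receptor-like protein, *Cd68* a glycoprotein of late endosomes, *Hmox1* the heme-degrading enzyme heme oxygenase 1, and *Vcam1* an adhesion molecule that binds the integrin of *Itga4* and *Itgb1*.

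Values are log2 GCRMA levels. A probe set was taken as measured where at least 1 sample reached the minimum intensity of 100, which is 6.64 on the log2 scale, and a gene with several probe sets is represented by the one with the highest mean level in that experiment. Of the 10 genes, 1 was measured in the *Crebbp* FL HSCs (*Csf1r*), 1 in the *Ep300* FL HSCs (*Csf1r*), 9 in the *Cdkn1a* FL HSCs (all but *C1qa*) and 6 in MEFs (*C1qa*, *C1qb*, *Csf1r*, *Mrc1*, *Hmox1* and *Vcam1*). The 4 experiments were normalized separately, so levels are compared only within an experiment, and a level of one probe set is not set against that of another. On each array 11199 to 11512 probe sets reached the minimum in the *Crebbp* FL HSCs, 12042 to 12363 in the *Ep300* FL HSCs, 18947 to 19522 in the *Cdkn1a* FL HSCs and 14380 to 14684 in MEFs.

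Promoter sequence was at hand for 6 of the 10 genes (*Marco*, *Mrc1*, *Cd5l*, *C1qb*, *Timd4* and *Cd68*), from RefSeq on GRCm38.p6. The letters GAGGAA, the core recognised by the macrophage and myeloid factor PU.1 (encoded by *Spi1*), were looked for on both strands in the 250 bases before the start site. They occurred in 5 of the 6 promoters, *Timd4* being the exception, and in 23.25% of all 32851 promoters of the same length. The 3 genes shown were chosen for a match in the last 120 bases. In the *Cdkn1a* experiment they were at background in 6 FL HSC samples and well above it in the same 1. *Marco* and *Timd4* had that pattern of levels too, with 0 matches in their last 120 bases. The lines give those 120 bases 5′ to 3′ on the strand of the gene, with the match in capitals, written TTCCTC where it lies on the opposite strand.
*C1qb*, chr4:136886201-136886320, minus strand: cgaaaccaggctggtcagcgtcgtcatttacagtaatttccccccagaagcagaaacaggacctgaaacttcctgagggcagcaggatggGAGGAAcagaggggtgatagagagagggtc
*Cd5l*, chr3:87357761-87357880, plus strand: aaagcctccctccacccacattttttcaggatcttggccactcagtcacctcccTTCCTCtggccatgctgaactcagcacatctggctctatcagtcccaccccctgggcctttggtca
*Mrc1*, chr2:14229294-14229413, plus strand: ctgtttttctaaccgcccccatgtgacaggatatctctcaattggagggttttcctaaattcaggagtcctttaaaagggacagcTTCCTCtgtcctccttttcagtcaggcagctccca

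The match starts 30 bases before the start site in *C1qb*, 66 bases before it in *Cd5l* and 35 bases before it in *Mrc1*, which has 2 further matches upstream. The matches of *Marco* and *Cd68* start 146 and 225 bases before the start site. The E-box CACGTG was in 0 of the 6 promoters and in 6.02% of all, and the Maf recognition element TGACNNNGC, searched on both strands, in 1 of the 6 (*C1qb*) and in 10.16% of all. A match of letters is not a binding site, and no binding was measured in these samples.

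WT sample 3 of the *Cdkn1a* experiment stood apart from the other 6 samples across the array. In it 798 of 20962 measured probe sets (3.81%) lay over 1 log2 unit above the highest of the other 6 samples, against 5 to 68 in any other sample, and 322 (1.54%) lay over 3 log2 units above. A further 1120 probe sets lay over 1 log2 unit below all other samples in WT sample 3, against 5 to 39 elsewhere. All results of that experiment are therefore given with this sample apart. In bulk RNA, a larger share of cells of one type and more RNA of that type per cell cannot be told apart.

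All 10 genes had their highest level in WT sample 3. Of the 9 measured genes, 8 were over 1 log2 unit above every other sample there and 7 over 3 log2 units, counts fixed in large part by the choice of the genes. With samples below the minimum set to it, these counts were 7 and 4, beside 3.04% and 0.577% of all measured probe sets. The median gap between WT sample 3 and the highest other sample was 5.16 over the 10 genes, beside -0.36 over all measured probe sets, and rests mostly on other samples at background. For 6 of the 9 measured genes the other 6 samples all lay below the minimum, so that a fold is only a bound, set against the intensity of 100.

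The complement chain *C1qb* was at 3.52, 2.99 and 12.07 in WT samples 1 to 3 and at 3.68, 3.50, 3.10 and 3.96 in the 4 null samples. It was measured in WT sample 3 only, 43.0-fold above the minimum, and its other probe sets read 9.33 and 11.38 in that sample against at most 2.05 and 3.45 in any other. *C1qa* was at 4.69 in WT sample 3 and 2.01 in each of the other 6, which leaves it below the minimum in all 7 samples. *C1qc*, the remaining chain of C1q, was at 8.91 in WT sample 3 and at most 1.98 elsewhere.

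The scavenger-type genes were also highest in WT sample 3. *Cd5l* was at 10.43 in WT sample 3, 13.8-fold above the minimum, and at 2.03 in each other sample. *Marco* was at 9.14 against 2.16 to 2.17, at least 5.66-fold, while its dimmer probe set reached only 4.13. *Timd4* was at 7.50, 1.81-fold above the minimum, against 2.11 to 2.12. *Mrc1* was at 3.29, 3.76 and 8.71 in the WT samples and at 2.93, 2.92, 3.29 and 3.08 in the nulls, 4.18-fold above the minimum in WT sample 3. None of these 4 genes was measured in any of the other 6 samples.

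*Vcam1* was at 9.71 in WT sample 3, 8.40-fold above the minimum, and at 2.22 to 2.24 elsewhere. Its other probe sets read 5.02 and 2.68 in that sample, both below the minimum, so the 3 probe sets of *Vcam1* disagree on whether it was measured. Its integrin partners did not stand apart in WT sample 3: *Itga4* was at 13.43 there against 13.34 to 13.70, and *Itgb1* at 11.60 against 11.43 to 11.78.

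*Hmox1*, *Cd68* and *Csf1r* were measured in other *Cdkn1a* samples as well. *Hmox1* was at 6.26, 6.62 and 11.01 in the WT samples and at 6.74, 6.77, 6.47 and 6.77 in the nulls, so WT sample 3 was 18.9-fold above the highest other sample. The other 6 values straddled the minimum, with 3 of them reaching it. *Bach1* and *Nfe2l2*, which encode a repressor and an activator of *Hmox1*, were at 13.12 and 11.32 in WT sample 3 and did not exceed the highest of the other samples. *Cd68* was at 9.59, 9.61 and 11.14 in the WT samples and at 9.26, 9.75, 9.56 and 9.10 in the nulls, 2.64-fold above the highest other sample.

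*Csf1r* was well above the minimum in all 7 samples and is the one gene of the 10 that WT sample 3 did not set apart. Its levels were 12.47, 13.38 and 13.51 in the WT samples and 12.45, 13.22, 12.95 and 12.30 in the nulls. WT sample 3 was only 1.10-fold above WT sample 2, a gap of 0.13 that is smaller than the range of the other 6 samples, 12.30 to 13.38. Its other 2 probe sets gave the same order at the top, with 12.05 against at most 11.79 and 10.44 against at most 9.98. *Csf1r* and *Cd68* were thus measured in every *Cdkn1a* sample sorted as stem cells; the cells that carried them were not determined.

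**Figure D1:**
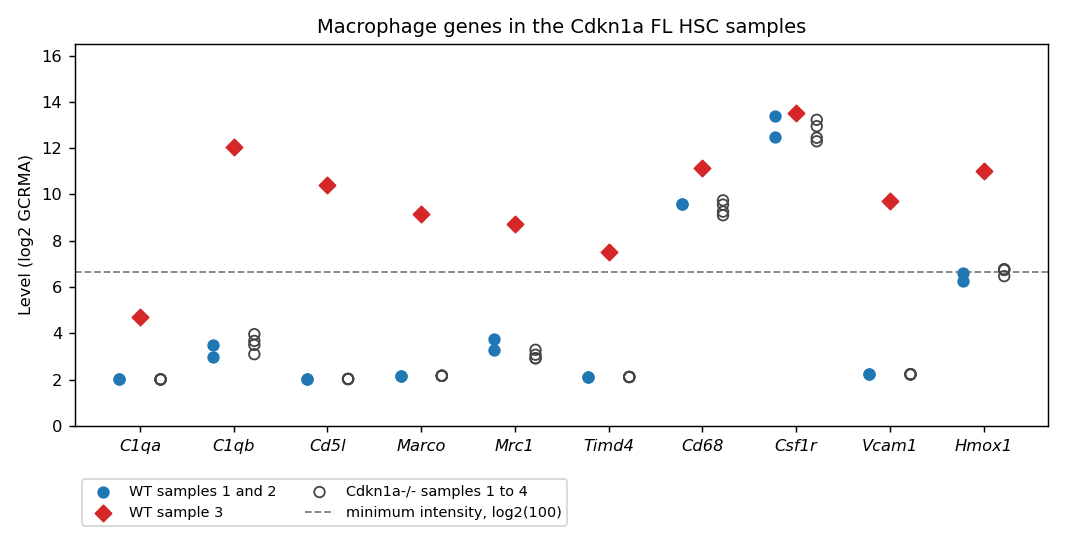
Log2 GCRMA level (y axis) of the 10 genes (x axis) in the 7 *Cdkn1a* FL HSC samples, 1 probe set per gene and 1 point per sample; the dashed line is the minimum intensity. WT sample 3 (diamonds) lies above the other 6 samples at every gene, by 8.40 at *Cd5l* and by 0.13 at *Csf1r*.

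WT sample 3 decided the *Cdkn1a* comparison of these genes. With all 3 WT samples, the null minus WT difference had a median of -1.99 over the 10 genes, beside 0.055 over all measured probe sets. Without WT sample 3 the median was 0.0023, beside 0.015 over all measured probe sets, and the genes ranged from -0.47 (*Mrc1*) to 0.31 (*C1qb*), both of them below the minimum in these samples. Of the genes measured without it, *Csf1r* differed by -0.19, *Cd68* by -0.18 and *Hmox1* by 0.25, and in each the 4 nulls overlapped the 2 WT samples. No test is given, since the genes were chosen on these samples.

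Several further macrophage markers were high in the same sample. Of 19 annotated genes of a further list of resident macrophage markers, 9 were measured and 7 lay over 1 log2 unit above all other samples: *Fcna* (9.45 against at most 2.05), *C1qc*, *Slc40a1* (8.92 against at most 2.80), *Folr2*, *Adgre1* (10.96 against at most 6.32), *Maf* and *Axl*. Of these, *Fcna*, *C1qc*, *Slc40a1*, *Folr2* and *Adgre1* were below the minimum in all other samples, so they counted as measured only through WT sample 3. *Fcna* encodes ficolin A of the lectin complement pathway, *Slc40a1* the iron exporter ferroportin and *Adgre1* a surface antigen widely used to mark mouse macrophages. The 10 list genes not measured in any of the 7 samples included *Cd163*, *Vsig4*, *Siglec1*, *Clec4f* and *Lyve1*, which mark tissue macrophages or Kupffer cells. These stayed at 2.29 or lower in every sample. *Spic*, the factor of iron-recycling macrophages, was also below the minimum, but at 5.801 in WT sample 3 against at most 2.496 elsewhere. So were *Mertk* (6.025 against at most 2.141) and *Trem2* (6.201 against at most 4.027). The mean level of the list was 6.31 in WT sample 3 and 3.72 to 3.86 in the others.

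Of 16 measured general phagocyte genes, 9 lay over 1 log2 unit above all other samples in WT sample 3, led by *Slc11a1*, *Aif1* and *Cybb*. *Spi1* was at 10.46 in it and 9.96 to 10.35 in the others. Several of these genes were high in all 7 samples, among them *Laptm5* at 14.60 to 14.77 and *Tyrobp* at 12.67 to 13.62.

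Genes of other cell types were also high in WT sample 3. Over 1 log2 unit above all other samples were 5 of 6 measured erythroid genes (*Alas2*, *Ermap* and *Slc4a1* the most), 9 of 10 hepatocyte genes (*Fgb*, *Rbp4* and *Ahsg* the most), 4 of 11 granulocyte and monocyte genes (*Camp*, *Ltf* and *S100a9* the most) and 2 of 6 megakaryocyte genes (*Ppbp* and *Pf4*). None of 9 stem cell, 4 lymphoid, 4 endothelial or 1 fibroblast genes did, and 6 of the 9 stem cell genes had their lowest level in WT sample 3, as did 3 of the 4 endothelial genes. *Slamf1* was at 7.27 there, 0.87 below the lowest other sample, and *Kit* was 0.525 below it. The rest of these stem cell and endothelial genes were only 0.062 to 0.294 below it. None of these stem cell and endothelial genes was over 1 log2 unit below all other samples, as 1120 probe sets across the array were. The megakaryocyte gene *Selp* was, at 7.67 in WT sample 3 and 1.01 below the lowest other sample. Of the same list, *Vwf* and *Gp9* lay within the range of the other samples and *Itga2b* was 0.97 above them. The share of all measured probe sets with their lowest level in WT sample 3 was not counted. With samples below the minimum set to it, the counts were 7 of 9 resident macrophage, 8 of 16 general phagocyte and 4 of 6 erythroid genes, and those of the other lists stayed as given. A gene counts as measured where WT sample 3 alone reaches the minimum, so these counts were in part fixed by that filter. The 5 erythroid genes counted were at 4.58 or lower in all other samples. *Fgb*, *Rbp4*, *Ahsg*, *Fga*, *Ppbp* and *Slc11a1* also lay below the minimum there. The part that cells of these types had in the levels of the 10 genes was not tested. The 5 genes outside the 10 with a profile nearest to their median profile, by Euclidean distance over the 7 samples, were *Gngt1* (distance 0.179), *Fgb* (0.799), *Serpinf2* (0.808), *Fgg* (0.944) and *Vtn* (0.978). This distance sets levels of different probe sets side by side and rests on WT sample 3, on which the 10 genes were selected, so it is a description only. Of these genes, *Fgb*, *Serpinf2*, *Fgg* and *Vtn* encode plasma proteins made by hepatocytes.

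**Figure D2:**
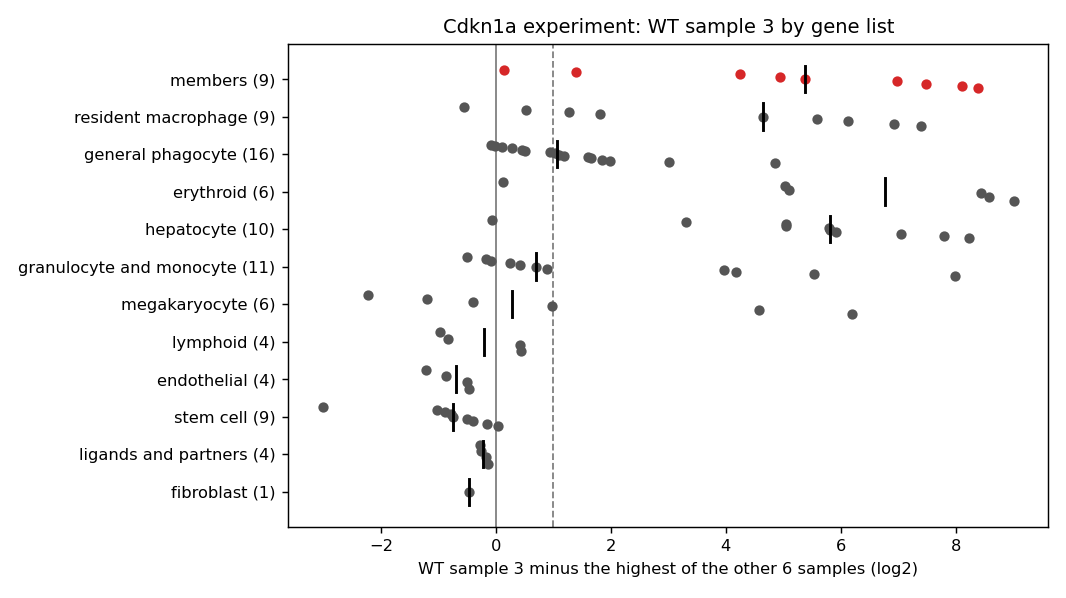
Level in WT sample 3 minus the highest of the other 6 *Cdkn1a* samples (x axis, log2 units) for the measured genes of each list (y axis, number measured in brackets); points are genes, black bars medians, the dashed line marks 1 log2 unit. The selected genes, drawn as members without *C1qa*, which was not measured, reach 8.40. Erythroid genes reach 9.01, while the 9 stem cell genes lie between -3.02 and 0.04.

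In the *Crebbp* and *Ep300* FL HSCs most of the 10 genes were at background. *C1qa*, *Marco*, *Cd5l*, *Timd4* and *Vcam1* lay between 2.20 and 2.44 at every probe set in all 8 samples. *Hmox1* was at 2.53 to 3.37, *C1qb* at most 3.96 and *Mrc1* at most 3.61, none of these sample means near the minimum. The 2 arrays behind the 3.96 of *C1qb*, in *Crebbp*+/- sample 2, read 2.66 and 5.26. Those of WT sample 2 in the *Crebbp* experiment read 2.61 and 4.45. *Cd68* came nearest, at 6.01 and 5.87 in WT and 5.41 and 5.89 in *Crebbp*+/- samples, and at 6.46 and 6.32 in WT and 6.36 and 6.00 in *Ep300*+/- samples. Absence is not shown by such levels, since only transcripts above the intensity of 100 count as measured. Of the further resident macrophage markers only *Maf* and *Dnase2a* were measured in these samples. *Maf* reached the minimum in the *Ep300* samples only, at up to 6.94, with 4.59 to 5.76 in the *Crebbp* samples.

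*Csf1r* was the one gene of the 10 measured in FL HSCs of all 3 experiments. In the *Crebbp* experiment it was at 9.81 and 10.76 in WT and 9.31 and 10.90 in *Crebbp*+/- samples, so the second sample of either genotype was higher than the first and the genotypes overlapped. By limma the *Crebbp*+/- minus WT difference was -0.18 (SE 0.18, n = 2 pairs, adjusted p = 0.586), with -0.50 in the first pair and 0.14 in the second. The SE comes from the joint fit with the *Ep300* samples, not from these 2 pairs alone. A second probe set was lower in both pairs, at 7.90 and 9.07 in WT against 7.37 and 8.79, a difference of -0.41 (SE 0.12, limma adjusted p = 0.135). The remaining probe set was below the minimum in all 4 samples, at 5.14 to 5.84, and entered the joint fit only through an *Ep300* WT sample at 6.70.

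In the *Ep300* experiment *Csf1r* was at 9.75 and 9.74 in WT and 9.63 and 9.76 in *Ep300*+/- samples. The difference of -0.048 (SE 0.18, n = 2 pairs, limma adjusted p = 1.00) was smaller than that between the 2 arrays of single samples, which read 9.18 and 10.32 in WT sample 1. The other 2 probe sets differed by -0.074 and -0.22. The *Crebbp* effect on *Csf1r* minus the *Ep300* effect was -0.13 (SE 0.25, limma adjusted p = 0.847), so a difference between the effects was not shown.

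Across the array, limma called 0.383% of 13332 probe sets in *Crebbp*+/- FL HSCs at an adjusted p under 0.05 and a fold over 1.5, 0 in *Ep300*+/- FL HSCs and 0 for the difference between the effects. The 51 calls in *Crebbp*+/- FL HSCs ranged from 0 to 222 over the alternatives tried. Limma called 0 of the 3 *Csf1r* probe sets in each contrast, the dimmest of them below the minimum in the *Crebbp* samples. At an unadjusted p under 0.05 it took 1 of the 3 *Csf1r* probe sets in *Crebbp*+/- FL HSCs, where the share of all probe sets was 24.0%, 0 in *Ep300*+/- FL HSCs (4.28% of all) and 0 for the difference between the effects (15.2% of all). The lists of resident macrophage genes (2 measured), general phagocyte genes (11) and ligands and partners of the 10 genes (4) also had no call by limma in these contrasts. *Maf*, of the resident macrophage list, entered the joint fit only through the *Ep300* samples. *Lyz2*, lysozyme of phagocytes, differed by -0.54 (SE 0.100, limma adjusted p = 0.0788) in *Crebbp*+/- FL HSCs; it was named for its small unadjusted p after the values were seen.

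**Figure D3:**
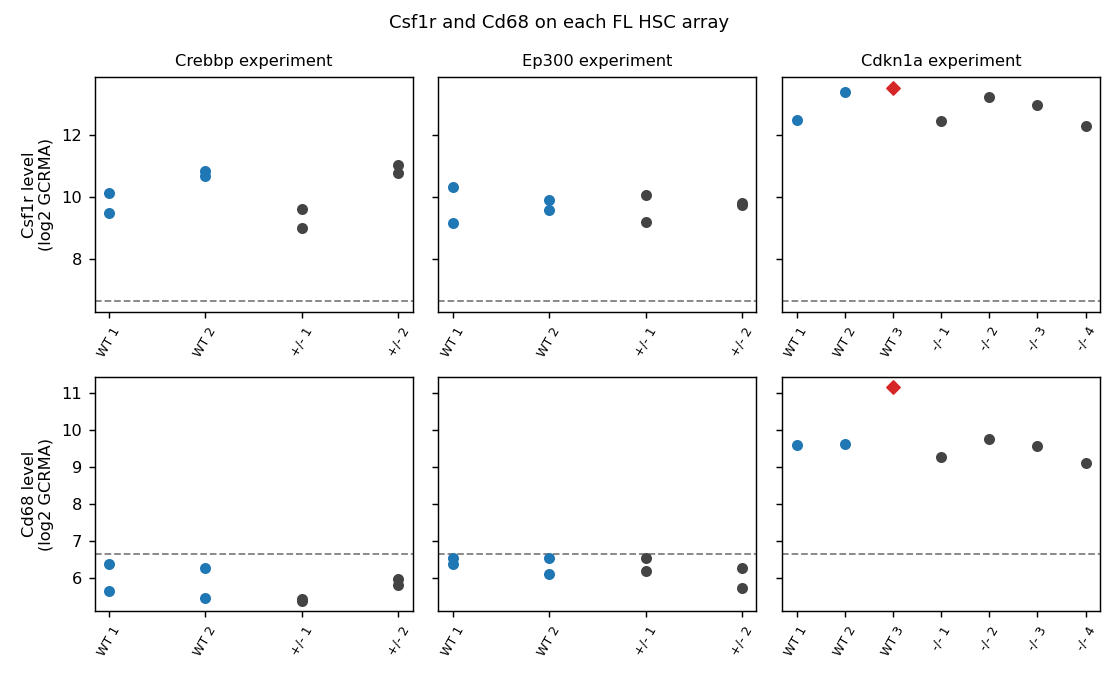
Log2 GCRMA level (y axes) of *Csf1r* and *Cd68* on each FL HSC array, by sample (x axis), with the minimum intensity as a dashed line; the *Crebbp* and *Ep300* samples have 2 arrays each, and the 3 experiments were normalized separately, so heights are not comparable between columns. *Csf1r* lies above the minimum on every array and WT and mutant samples overlap, while *Cd68* reaches the minimum only in the *Cdkn1a* experiment, with WT sample 3 (diamond) highest at 11.14.

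MEFs are connective tissue cells grown from the embryo body, and 6 of the 10 genes were measured in them. *Vcam1*, which fibroblasts also express, was at 11.12, 11.16, 11.26 and 11.14 in WT litters 1 to 4 and at 10.76, 10.73, 10.77 and 10.36 in *Crebbp*+/- litters 1 to 4. All 4 *Crebbp*+/- samples lay below all 4 WT samples, and the difference was -0.52 (SE 0.092, n = 4 litters, lower in 4 of 4, limma adjusted p = 0.505). A second probe set gave 9.87, 10.12, 10.05 and 10.01 in WT against 9.46, 9.57, 9.60 and 9.41, again with no overlap and a difference of -0.51 (SE 0.068, limma adjusted p = 0.465). The third gave -0.57 (SE 0.17, lower in 3 of 4 litters, limma adjusted p = 0.652), with overlapping genotypes. All 4 *Crebbp*+/- samples thus lay below all 4 WT samples at 2 of the 3 probe sets, as they did at 1.37% of the 15502 probe sets tested, and no probe set of *Vcam1* passed the adjustment over all of them.

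*Hmox1* was at 9.88, 9.84, 9.88 and 10.23 in WT and at 9.76, 9.42, 9.79 and 9.87 in *Crebbp*+/- MEFs. It was lower in the *Crebbp*+/- embryo of 4 of 4 litters, by -0.24 on average (SE 0.088, limma adjusted p = 0.714), while the genotypes overlapped. Its regulators *Bach1* and *Nfe2l2* were not called either.

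The genes more restricted to macrophages varied mainly between embryos. *C1qa* was at 4.57, 5.02, 7.76 and 6.29 in WT and at 5.38, 6.68, 5.97 and 5.65 in *Crebbp*+/- MEFs, a range of 3.19 log2 units with a mean difference of 0.0082 (SE 0.57, limma adjusted p = 0.999). *C1qb* was at 6.73, 6.99, 7.82 and 7.34 in WT and at 7.12, 7.49, 7.30 and 7.02 in *Crebbp*+/- MEFs, a difference of 0.012 (SE 0.20). Its other 2 probe sets differed by 0.44 and 0.62, with SEs of 0.56 and 0.57. *Mrc1* was at 6.65, 5.68, 7.70 and 6.96 in WT and at 6.88, 6.95, 6.51 and 7.39 in *Crebbp*+/- MEFs, a difference of 0.19 (SE 0.39, limma adjusted p = 0.923). *C1qa*, and *C1qb* at the probe set given in full, were higher in the *Crebbp*+/- embryo of 2 litters and lower in the other 2. The other *C1qb* probe sets and *Mrc1* were higher in 3 of 4, and the genotypes overlapped for each.

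The WT embryo of litter 3 was the highest of the 8 for *C1qa*, *C1qb*, *Csf1r* and *Mrc1*. For *Vcam1* it was highest at 1 of 3 probe sets, with WT litter 2 highest at the other 2, and *Hmox1* was highest in WT litter 4. *Csf1r* reached the minimum in that embryo alone, at 6.65, with 6.09 to 6.56 in the others, and its other 2 probe sets stayed below the minimum at 5.18 to 6.33 and 2.02 to 2.87. Other phagocyte genes had their highest level in the same embryo, among them *Lyz2* at 9.98 against 7.97 to 9.33, *Ctss* at 7.99 against 6.03 to 7.38, *Adgre1* at 7.02 against 6.56 to 6.99 and *Tyrobp*, below the minimum, at 5.94 against 3.05 to 4.48. These 4 were named after their values were seen. Of all measured list genes, only 1 of 6 resident macrophage and 2 of 4 general phagocyte genes were highest there. The others, *Slc40a1*, *Mertk*, *Maf*, *Dnase2a*, *Ctsb* and *Ctsd*, were highest in WT litter 1, except *Axl*, highest in WT litter 2. WT litter 1 had the lowest *C1qa* and *C1qb* of the 8 embryos. *Spi1* was at 3.03 to 3.07 in all 8 MEF samples and *Marco*, *Cd5l* and *Timd4* at 2.01 to 3.03. The part of macrophages in these levels was not tested.

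Over the 6 measured genes the median *Crebbp*+/- minus WT difference in MEFs was 0.0041, beside 0.023 over all probe sets tested. Limma called 0 of their 10 probe sets, and 0 of 15502 across the array. At an unadjusted p under 0.05 it took 4 of the 10, the 3 of *Vcam1* and that of *Hmox1*, beside 6.64% of all probe sets. None of the 6 resident macrophage, 4 general phagocyte or 6 ligand and partner genes measured in MEFs was called by limma. The ligand *Csf1*, which fibroblasts secrete, was at 10.38 to 11.17.

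**Figure D4:**
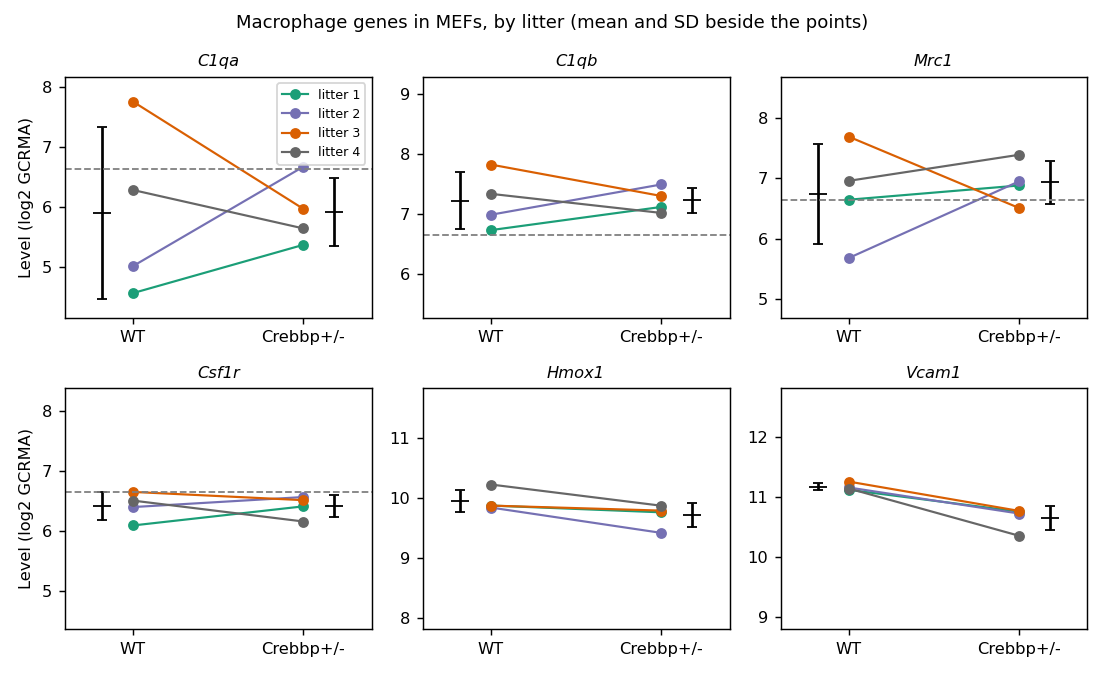
Log2 GCRMA level (y axes) of the 6 genes measured in MEFs, WT and *Crebbp*+/- embryos of a litter joined by a line; black bars beside the points are the mean and SD of 4 embryos, the dashed line is the minimum intensity, and every panel spans 4 log2 units. *Vcam1* and *Hmox1* are lower in the *Crebbp*+/- embryo of all 4 litters, while the lines of *C1qa*, *C1qb*, *Mrc1* and *Csf1r* cross, with WT of litter 3 at 7.76 for *C1qa*.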

How the data were processed

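Levels are log2 values that the authors deposited after running GCRMA on the arrays of each of the 4 experiments apart (31 arrays, 23 samples). GCRMA subtracts background and pulls dim probe sets to a common low value, so levels near 2 have no order. The methods state that MEF RNA was not amplified, whereas the labels name the amplification kit for it. From the table, 64 control probe sets were dropped and the 2 arrays of a *Crebbp* or *Ep300* FL HSC sample were averaged (r = 0.989 to 0.994). Of 45037 probe sets, 34945 have 1 gene symbol in the platform annotation, and only these were named. Of 121 genes in 11 marker lists, 112 were annotated.

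limma 3.58.1 (R 4.3.3) tested probe sets whose highest sample reached log2(100), the *Crebbp* and *Ep300* FL HSCs in 1 fit blocked by pair and the fibroblasts blocked by litter. A call needed a Benjamini-Hochberg adjusted p under 0.05 and a fold over 1.5. The deviations of samples sharing a number correlated in the *Crebbp* and *Ep300* FL HSCs (r = 0.71 and 0.38) and, by litter, in MEFs (0.19 to 0.46). In the unpaired *Cdkn1a* samples r was 0.25, 0.29 and -0.045. Since 0.25 and 0.29 lie within the range of the MEFs, these values do not separate paired from unpaired samples. P-values rest on few pairs, 4 litters in MEFs and 2 pairs in each FL HSC experiment. In FL HSCs the 4 pairs of both experiments share 1 estimate of the spread. An SE there is therefore not the spread of the 2 pairs of 1 experiment. The procedure was tested on simulated data. The 10 genes and all lists were chosen with earlier results of these data known. The rule named all 10 genes at every probe set and, of the other lists, genes called (none) and the 3 with the largest gap in WT sample 3; other list genes were named after their values were seen. Sequences are RefSeq's, GRCm38.p6.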

Additional observations from a re-analysis of the deposited data

Results flagged for a closer look

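Of 14 gene and group combinations with 4 samples and a level over the minimum, 3 had a sample far from the others, where chance gives about 1 in 20. *Hmox1* was lowest in *Cdkn1a*-/- sample 3, at 6.472, below the minimum and close to the other nulls. *Hmox1* in WT MEFs was highest in litter 4, at 10.227. *Vcam1* in *Crebbp*+/- MEFs was lowest in the same litter, at 10.357. Without litter 4 the *Vcam1* difference was -0.43, the smallest of all alternatives run, beside -0.52 with every litter.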

How the results depend on the processing

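In the fits with a replicate block and in all alternatives run, limma called 0 of the selected probe sets. The median null minus WT difference over the 10 genes in the *Cdkn1a* experiment was -1.99 and ranged from -2.93 to 0.0023 when single samples were left out, the last without WT sample 3; it was -1.999 with a replicate block on numbers 1 to 3, -1.38 with the mean of all probe sets of a gene and -2.03 with centred arrays. Counted after the values were seen with samples below the minimum set to it, 7 genes in place of 8 lay over 1 log2 unit above the other samples in WT sample 3 and 4 in place of 7 over 3 log2 units. Leaving out single pairs or litters gave *Csf1r* differences of -0.50 to 0.14 in *Crebbp*+/- and -0.12 to 0.022 in *Ep300*+/- FL HSCs, and in MEFs of -0.54 to 0.61 for *C1qa*, -0.15 to 0.19 for *C1qb* and -0.17 to 0.65 for *Mrc1*, so the direction of these rests on single pairs or litters. The first arrays alone gave 0.081 for *Csf1r* in *Ep300*+/- FL HSCs, and centred arrays gave -0.0090 for *C1qa* and -0.0050 for *C1qb* in MEFs. *Vcam1* and *Hmox1* kept their direction in MEFs in every alternative run, at -0.57 to -0.43 and -0.30 to -0.18, with limma adjusted p of 0.272 to 1.0 and 0.445 to 1.0. Calls over all probe sets in *Crebbp*+/- FL HSCs ranged from 0 to 222 (51 as reported, 222 with a filter on the mean, 208 with centred arrays, and 0 without the replicate block, with the 4 samples alone, with single arrays, with no filter or with either pair left out), and in MEFs 2 were called without the block or without litter 1. The methods' t-test took 199, 11 and 61 probe sets unadjusted in *Crebbp*+/- FL HSCs, *Ep300*+/- FL HSCs and MEFs, and 0 after adjustment. Levels below the minimum limit 9 of the 10 genes in the *Crebbp* and *Ep300* FL HSCs.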
